A study of Mus musculus with 2 samples.

Results

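Skeletal muscle runs a large program of alternative splicing and mRNA stability control, and 10 genes that encode RNA-binding proteins of that program were followed here through the start of muscle formation in the mouse somite. The 10 genes, Rbm24, Rbm38, Rbm20, Mbnl1, Mbnl2, Mbnl3, Celf1, Celf2, Rbfox2 and Qk, were taken by their symbols from the 27998 genes of the count matrices, and all 10 were found in both. Inter-limb somites of wild type C57BL/6 embryos were dissected at embryonic day 9.5 (E9.5) and E11.5, 3 embryos were pooled per stage, and each pool gave 1 10x Genomics Chromium library of single-cell RNA. No allele was altered and no agent was given, so the stages differed in age alone by their labels, and with 1 library per stage no difference between stages or classes could be tested.

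RNA-binding proteins of this kind act after transcription. RBM24 and its paralog RBM38 bind the mRNAs of muscle regulators such as Myog and Cdkn1a and stabilize them, and RBM24 also controls muscle exons. RBM20 represses exons of the giant sarcomere gene Ttn and is mutated in dilated cardiomyopathy. The muscleblind proteins (MBNL) and the CELF proteins act on many of the same exons in opposite directions, and the capture of MBNL1 by expanded CUG repeats shifts that balance in myotonic dystrophy. RBFOX2 and QK (quaking) bind intronic motifs beside muscle exons, and QK is also known for its part in myelination and in blood vessels. UMIs were counted gene by gene, so the values below are transcript levels of these genes and say nothing of the exons that their proteins control.

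A unique molecular identifier (UMI) marks 1 captured mRNA molecule, and cells with at least 200 and under 6500 genes and under 15% mitochondrial UMIs were kept. These were 9851 cells of the E9.5 library and 9595 of the E11.5 library, with median depths of 12462 and 12479 UMIs. Cells were put into classes by the UMIs of a few genes each, called gates here. The 5 muscle gates required no Sox2, Sox3 or Sox10 UMI and followed the order of myogenesis. They were a Pax3 gate (at least 2 Pax3 and no Pax7 UMIs) and a Pax7 gate (at least 1 UMI), both for progenitors. A Myod1 gate (at least 2 UMIs) took committed myoblasts, and a Myog gate took cells with at least 2 UMIs of myogenin. An Acta1 gate took cells with at least 10 UMIs of skeletal actin, whatever their Myog UMIs. Each gate left out cells at or past the cutoff of a later gate, so the Myog gate held cells under 10 Acta1 UMIs. At E11.5 the 5 gates held 173, 317, 197, 451 and 182 cells. At E9.5 the Pax3 gate held 798 cells and the Pax7 gate 88, whereas the Myod1 gate held 0, the Myog gate 29 and the Acta1 gate 4, so the last 3 gates were compared with nothing at that stage. Another 11 gates took non-muscle tissues from cells under the Myod1, Myog and Acta1 cutoffs, with 4519 cells at E9.5 and 3272 at E11.5. A cell that met more than 1 gate was left out, which applied to 6.87% of the E9.5 cells and 10.6% of the E11.5 cells. By these limits a cell of the Myod1, Myog or Acta1 gate could meet no other gate.

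Levels are given as UMIs of the gene per 1000000 UMIs of the class (UPM), with the exact 95% Poisson interval in brackets. These intervals cover counting error only. Because cells of a pooled library are not replicates of a stage, no SD or p-value is given, and a ratio is called past 2-fold only where the gene had at least 100 UMIs in both classes together. UPM of different genes were not compared with each other.

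Markers that no gate used followed the gates in part. All 7 sarcomere markers listed for the Acta1 gate, Myh3, Myl1, Mylpf, Actc1, Ttn, Tnnt1 and Tnnc2, were among the top 3 classes there, as were 4 of 5 markers in the Myog gate and 4 of 6 progenitor markers in the E11.5 Pax7 gate. The E11.5 Pax3 and Myod1 gates were less clear, with 2 of 6 and 2 of 5. The gate set on Twist2 is named by that gene, since the dermal gene Dpt was at 0 UMIs in it at E11.5 and held 2 at E9.5. Summed over its own list, the E11.5 sclerotome gate held 616 UPM, against 698 in the highest class with another list. The E9.5 Twist2 gate held 558 against 585. At E11.5 the Myod1 gate held 345 against 528, the Myog gate 1038 against 2851, and the Pax7 and Pax3 gates 2729 and 1774 against 3002. In the remaining classes the gate's own sum was the highest. Gene lists of other tissues moved with the muscle gates too. From the E11.5 Pax7 gate to the Acta1 gate the summed level of 4 sclerotome markers went from 272 to 65.9 UPM and that of 5 neuronal markers from 46.9 to 110 UPM, against 8733 UPM in the neurons themselves, with none of the neuronal markers at 0 in either gate. Their part in the results was not tested. The libraries shared 30 cell barcodes, 25 of them among the cells kept.

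Rbm24 had the largest step between neighbouring muscle gates of the 10 genes. At E11.5 its level was 2.75 UPM (1.11 to 5.68) in the Pax3 gate, 17.4 (14.1 to 21.3) in the Pax7 gate, 21.4 (16.9 to 26.6) in the Myod1 gate, 294 (283 to 306) in the Myog gate and 314 (296 to 334) in the Acta1 gate. The Pax7 and Myod1 intervals overlapped, and so did those of the Myog and Acta1 gates. On the log2 scale the Acta1 gate stood 4.17 (3.87 to 4.49) above the Pax7 gate, an 18.1-fold ratio resting on 1040 against 94 UMIs. The step from the Myod1 to the Myog gate alone was 3.78 (3.46 to 4.13), that from the Pax7 to the Myod1 gate 0.29 (-0.16 to 0.74), and that from the Myog to the Acta1 gate 0.10 (-0.01 to 0.20). Rbm24 was present in the E11.5 Pax7 gate above the Pax3 gate as well, by 2.66 (1.56 to 4.01) on the log2 scale. Pax7-gated cells with no Myog UMI at all, 269 of the 317, held 15.8 UPM (12.3 to 19.9) of Rbm24, and the 48 cells with 1 Myog UMI held 26.6 (16.6 to 40.2).

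The shares of cells with an Rbm24 UMI followed the same order. At E11.5 they were 2.89% of Pax3-gated, 18.3% of Pax7-gated, 25.4% of Myod1-gated, 78.0% of Myog-gated and 84.1% of Acta1-gated cells, at class medians of 14044 to 17286.5 UMIs. When cells were thinned to 5000 UMIs the last 4 shares became 7.09%, 9.49%, 60.6% and 76.9%. In red blood cells, at a median of 16781 UMIs, 0 of 121 cells had one, where 3 cells, the floor set for a 0, would be 2.48%. In endothelial cells, at a median of 17147 UMIs, 0 of 61 cells had one, where 3 cells would be 4.92%. This floor is not an exact 95% limit. Of the 335 cells at E11.5 with at least 5 Rbm24 UMIs, 214 were in the Myog gate and 106 in the Acta1 gate. Those gates held 87.4% of all Rbm24 UMIs of the library and 9.04% of its UMIs over all genes.

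**Figure D1:**
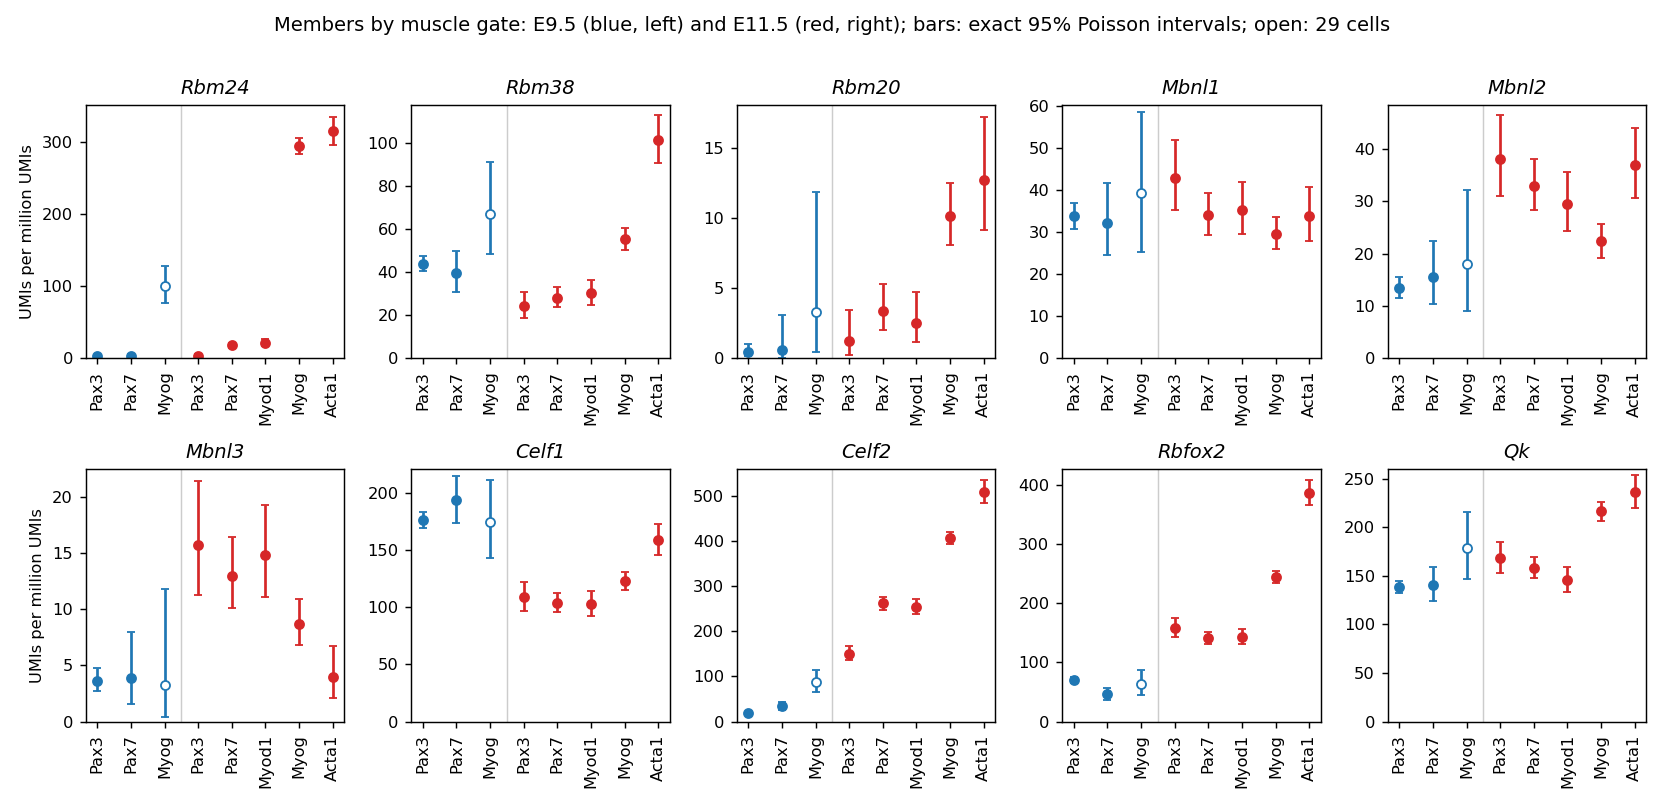
Level of each gene in UMIs per 1000000 UMIs (linear axes that start at 0, a different scale for each gene) in the E9.5 gates (blue, left) and the E11.5 gates (red, right). Points are sums over the cells of a gate, bars are exact 95% Poisson intervals, and the open point is the E9.5 Myog gate of 29 cells. Rbm24 steps from 21.4 in the Myod1 gate to 294 in the Myog gate at E11.5, Rbm38, Celf2 and Rbfox2 are highest in the E11.5 Acta1 gate, and Mbnl3 is lowest there among the E11.5 gates.

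RBM24 and RBM38 carry closely related RNA recognition motifs. The most alike stretch of 90 bases between their longest coding sequences, in frame and without gaps, is shown to give how near the paralogs are in sequence. Both genes were also higher in differentiated muscle cells here. Bases are counted from the A of the start codon in the GENCODE M21 transcripts of the GRCm38 build, the letters run 5′ to 3′, and capitals mark the bases that differ.
Rbm24, coding bases 85 to 174: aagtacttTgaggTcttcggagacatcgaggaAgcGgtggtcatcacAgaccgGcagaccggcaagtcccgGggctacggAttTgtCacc
Rbm38, coding bases 148 to 237: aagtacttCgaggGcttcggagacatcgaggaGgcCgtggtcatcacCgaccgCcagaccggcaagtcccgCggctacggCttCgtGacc
In this stretch 80 of 90 bases were the same (88.9%) and 10 differed. The sources used here do not say which end of a transcript the kit read. Within the last 500 bases, where kits primed from the poly(A) tail read, 0 of the 45 pairs among the 10 genes shared a stretch of 31 bases. Rbm24 (ENSMUSG00000038132) lies on the plus strand of chromosome 13 at 46418434 to 46431095, and Rbm38 (ENSMUSG00000027510) on the plus strand of chromosome 2 at 173020498 to 173034734, both in GRCm38. The last kilobase of Rbm38 is overlapped by the antisense gene Gm14453, and the strand used in counting is not given in the sources used here.

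Rbm38 differed less between the gates, by 0.88 (0.57 to 1.19) on the log2 scale from the Myod1 to the Myog gate and by 0.88 (0.67 to 1.08) from there to the Acta1 gate. Its level at E11.5 was 24.0 UPM (18.4 to 30.8) in the Pax3 gate, 28.0 (23.7 to 32.8) in the Pax7 gate, 30.1 (24.7 to 36.3) in the Myod1 gate, 55.2 (50.3 to 60.5) in the Myog gate and 101 (90.7 to 113) in the Acta1 gate. The first 3 intervals overlapped, and the Myog and Acta1 gates each stood clear of the gate before. Against the Pax7 gate the Acta1 gate was higher by 1.86 (1.57 to 2.14) on the log2 scale. Unlike Rbm24, its highest class of all at E11.5 was not muscle, since red blood cells held 152 UPM (135 to 169).

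Rbm20 was sparse. It held 18 UMIs in the Pax7 gate and 42 in the Acta1 gate at E11.5, too few for the count of ratios, and its level was 1.18 UPM (0.243 to 3.45) in the Pax3 gate, 3.34 (1.98 to 5.27) in the Pax7 gate, 2.46 (1.13 to 4.68) in the Myod1 gate, 10.1 (8.06 to 12.5) in the Myog gate and 12.7 (9.15 to 17.2) in the Acta1 gate. The last 2 intervals did not overlap the first 3. The Myog gate against the Pax7 gate, with 103 UMIs in all, gave a log2 ratio of 1.60 (0.85 to 2.42). Every non-muscle class at E11.5 was at or below 1.55 UPM, and 5 of the 11, the neural tube, endothelial, white blood, red blood and cartilage gates, were at 0 UMIs.

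The promoters of Rbm24 and Rbm38 are shown because both were higher in the Myog and Acta1 gates than in the Pax7 gate, and MYOG and MYOD1 are known to bind E-boxes, CANNTG. The windows run from 250 bases before to 50 after the RefSeq start in GRCm38.p6, with each CANNTG match in capitals.
Rbm24 promoter, chr13:46418050-46418349, + strand: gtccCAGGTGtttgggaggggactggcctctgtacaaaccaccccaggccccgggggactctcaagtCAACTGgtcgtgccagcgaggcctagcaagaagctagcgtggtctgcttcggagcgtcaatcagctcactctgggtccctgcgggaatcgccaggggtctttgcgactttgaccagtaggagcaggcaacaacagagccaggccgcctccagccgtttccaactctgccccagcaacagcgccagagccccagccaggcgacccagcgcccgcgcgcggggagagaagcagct
Rbm38 promoter, chr2:173021652-173021951, + strand: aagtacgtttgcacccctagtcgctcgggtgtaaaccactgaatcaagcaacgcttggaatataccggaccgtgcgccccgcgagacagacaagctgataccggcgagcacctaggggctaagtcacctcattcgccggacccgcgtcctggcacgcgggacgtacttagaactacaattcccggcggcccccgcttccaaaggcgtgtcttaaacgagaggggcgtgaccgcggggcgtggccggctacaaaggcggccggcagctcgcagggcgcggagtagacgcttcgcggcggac
The Rbm24 window held 2 matches, CAGGTG at 246 and CAACTG at 183 bases before the start, and the Rbm38 window held 0. Among 32851 RefSeq promoters of the same length 72.3% held CANNTG, and 11.2% held CAGGTG, the letters of CACCTG read from the other strand. CACCTG or CAGGTG was found in 20.2%. Windows were found for 8 of the 10 genes, without Rbm20 and Rbfox2. A match here is a description of letters and no binding was measured.

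The muscleblind genes did not share the step at Myog. Mbnl1 (ENSMUSG00000027763, chromosome 3, 60472830 to 60629750, plus strand) is the main MBNL of muscle, and its level at E11.5 was 42.9 UPM (35.2 to 51.7) in the Pax3 gate, 33.9 (29.2 to 39.2) in the Pax7 gate, 35.3 (29.5 to 42.0) in the Myod1 gate, 29.6 (26.0 to 33.5) in the Myog gate and 33.9 (27.9 to 40.8) in the Acta1 gate. Apart from the Pax3 and Myog gates all these intervals overlapped. The log2 ratio of the Acta1 to the Pax7 gate was -0.00 (-0.35 to 0.35), an interval that holds no change past 1.5-fold in either direction. Mbnl2, best known in the brain, was lowest in the Myog gate at 22.3 UPM (19.2 to 25.8) and stood at 33.0 (28.3 to 38.2) in the Pax7 gate and 36.9 (30.6 to 44.0) in the Acta1 gate. Mbnl3, which lies on the X chromosome and opposes muscle differentiation in cultured cells, ran the other way from Rbm24. It stood at 15.7 UPM (11.2 to 21.4) in the Pax3 gate, 13.0 (10.1 to 16.4) in the Pax7 gate, 14.8 (11.1 to 19.3) in the Myod1 gate, 8.67 (6.80 to 10.9) in the Myog gate and 3.93 (2.09 to 6.72) in the Acta1 gate. The 13 UMIs of Mbnl3 in the Acta1 gate kept it out of the count of ratios, and its log2 ratio to the Pax7 gate was -1.72 (-2.70 to -0.86).

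The CELF genes are close paralogs as well, and their most alike coding stretch is printed in the same way to show how near the sequences of the antagonists of MBNL are to each other.
Celf1, coding bases 1384 to 1473: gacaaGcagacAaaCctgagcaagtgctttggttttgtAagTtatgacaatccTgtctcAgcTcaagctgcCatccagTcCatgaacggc
Celf2, coding bases 1423 to 1512: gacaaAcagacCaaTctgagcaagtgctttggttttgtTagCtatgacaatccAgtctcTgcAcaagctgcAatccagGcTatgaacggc
Here 79 of 90 bases were the same (87.8%). Both genes were higher in the Acta1 gate than in the Pax7 gate at E11.5, Celf2 by the larger ratio. Celf1 (ENSMUSG00000005506, chromosome 2, 90940382 to 91019497, plus strand), which also promotes the decay of GU-rich mRNAs, was 104 UPM (95.5 to 113) in the Pax7 gate, 103 (92.8 to 114) in the Myod1 gate, 123 in the Myog gate and 159 (145 to 173) in the Acta1 gate at E11.5, a log2 ratio of 0.61 (0.44 to 0.78) from the Pax7 to the Acta1 gate. Celf2 (ENSMUSG00000002107, chromosome 2, 6539694 to 7509563, minus strand) was 151 (136 to 167) in the Pax3 gate, 262 (248 to 276) in the Pax7 gate, 255 (239 to 272) in the Myod1 gate, 407 (394 to 421) in the Myog gate and 510 (486 to 535) in the Acta1 gate. Each level of Celf2 stood clear of the one before except that of the Myod1 gate. Its log2 ratio from the Pax7 to the Acta1 gate was 0.96 (0.86 to 1.06), just under 2-fold with an interval that holds 2-fold. It went past 2-fold under 5 of the other settings.

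Rbfox2 and Qk, which bind intronic motifs beside many muscle exons, were both higher in the late gates. Rbfox2 (ENSMUSG00000033565, chromosome 15, 77078990 to 77307004, minus strand) was 158 UPM (143 to 174) in the Pax3 gate, 141 (131 to 151) in the Pax7 gate, 143 (131 to 156) in the Myod1 gate, 244 (233 to 254) in the Myog gate and 386 (365 to 408) in the Acta1 gate. Its Acta1 to Pax7 log2 ratio was 1.46 (1.33 to 1.59). Qk (ENSMUSG00000062078, chromosome 17, 10202601 to 10319854, minus strand) was 158 (147 to 169) in the Pax7 gate, 146 (134 to 159) in the Myod1 gate, 216 (206 to 226) in the Myog gate and 236 (220 to 254) in the Acta1 gate, and its log2 ratio was 0.58 (0.44 to 0.72).

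Of the 8 genes with at least 100 UMIs in the Pax7 and Acta1 gates together, 3 were past 2-fold higher in the Acta1 gate, Rbm24, Rbm38 and Rbfox2, and 0 past 2-fold lower. Over all 7617 genes with as many UMIs, 10.8% were past 2-fold higher and 18.0% past 2-fold lower. The median log2 ratio was 0.79 for the 8 genes and -0.28 for all genes. UPM are shares of a total, and the 7 sarcomere markers alone took 45820 UPM in the Acta1 gate. Centred on the median of all genes, 13.98% were past 2-fold higher and 12.08% lower, and 4 of the 8 were then past 2-fold higher, Celf2 being the added gene at 1.24. Mbnl1 then stood at 0.28 and Mbnl2 at 0.44. By rank, 97.5% of all genes had a lower ratio than Rbm24, 93.8% than Rbm38, 92.3% than Rbfox2, 88.8% than Celf2 and 64.8% than Mbnl1.

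**Figure D2:**
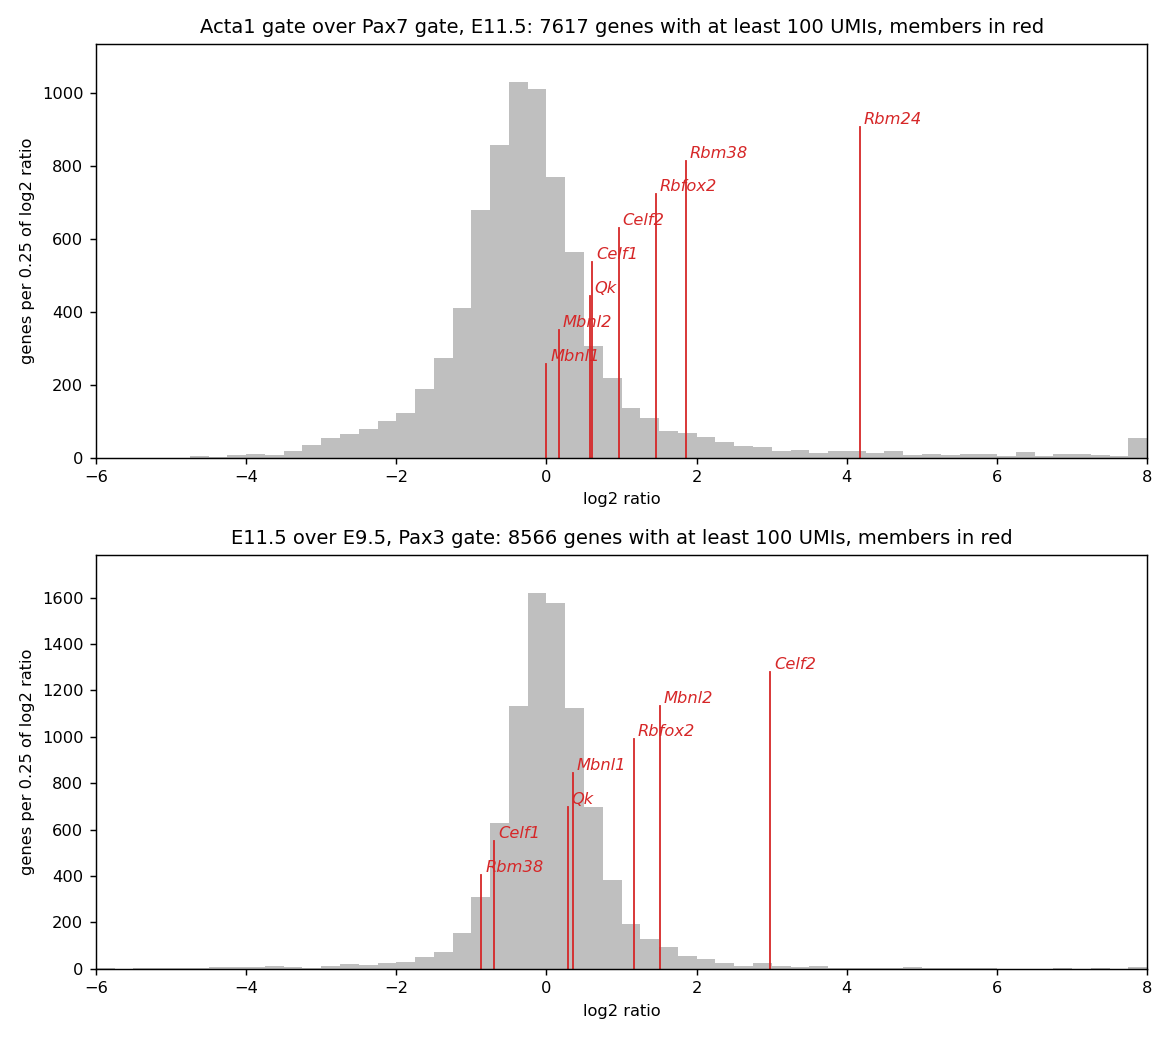
Number of genes per 0.25 of log2 ratio, for the Acta1 over the Pax7 gate at E11.5 (upper) and E11.5 over E9.5 in the Pax3 gate (lower), over all genes with at least 100 UMIs in both classes together. Red lines mark the members, at heights that separate the names only, and ratios past the ends of the axis fall in the outermost bars. Rbm24 lies far to the right in the upper panel at 4.17 and Celf2 in the lower at 2.98, while Mbnl1 lies at -0.00 in the upper and at 0.35 in the lower.

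Within the Myog gate the cells were split by their Myog UMIs into 117 cells of 2 to 4, 113 of 5 to 19, 110 of 20 to 59 and 111 of at least 60, at medians of 15965, 18573, 17419 and 17277 UMIs in all. Rbm24 was 53.0 UPM (43.4 to 64.1) in the first, 144 (128 to 160) in the second, 458 (430 to 488) in the third and 508 (478 to 539) in the last. In the Myod1 gate the 148 cells with no Myog UMI held 20.5 (15.4 to 26.7) and the 49 cells with 1 held 23.7 (15.2 to 35.2), intervals that overlapped. The lowest bin of the Myog gate stood above both. Rbm38 differed most at the top of the range, with 32.0, 44.1, 47.4 and 96.0 UPM in the same order, the last interval being 83.3 to 110. Celf2 went from 286 to 330, 453 and 554 UPM and Rbfox2 from 161 to 181, 254 and 375. Mbnl3 was 12.0 and 13.0 in the lower bins and 5.63 and 4.21 in the upper. Mbnl2 stayed between 21.4 and 23.5 in all 4 bins, with overlapping intervals.

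The Acta1 gate split by Acta1 UMIs, with 61 cells of 10 to 29, 54 of 30 to 99 and 67 of at least 100, gave no further increase for Rbm24, at 354 UPM (312 to 400), 359 (321 to 401) and 275 (251 to 301). Celf2 was likewise lowest where Acta1 was highest, with 559 (505 to 617), 614 (564 to 668) and 435 (405 to 468). Median UMIs per cell were 10987, 15827 and 24104 in these bins, so depth moved with them, and its part was not tested.

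**Figure D3:**
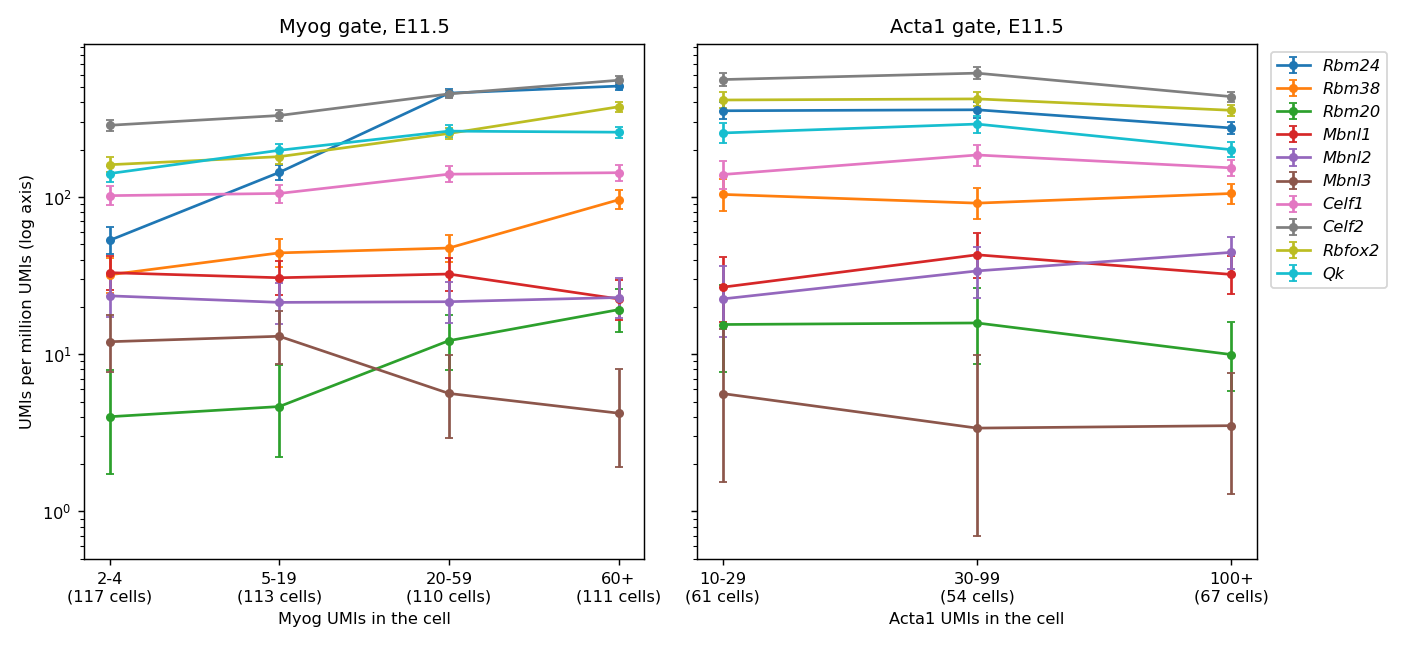
Level of each gene in UMIs per 1000000 UMIs (log axis) at E11.5 in cells of the Myog gate by their Myog UMIs (left) and of the Acta1 gate by their Acta1 UMIs (right), with exact 95% Poisson intervals. Rbm24 climbs from 53.0 to 508 across the Myog bins and is 275 in the highest Acta1 bin, Mbnl3 goes down, and Mbnl2 runs flat across the Myog bins.

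Cells with proliferation transcripts were fewer along the same series. Cells with a UMI of Mki67 or Top2a made up 80.1% of the Pax7 gate, 79.7% of the Myod1 gate, 66.3% of the Myog gate and 18.7% of the Acta1 gate. Inside the Myog gate, Rbm24 was 251 UPM (239 to 263) in the 299 cells with such a UMI and 444 (414 to 475) in the 152 without. Rbm38 was 47.2 (42.0 to 52.7) against 83.1 (70.6 to 97.1), Celf2 369 (355 to 384) against 539 (507 to 573), and Rbfox2 213 (202 to 224) against 350 (324 to 378). So each of these 4 was higher in the cells of the Myog gate without proliferation transcripts, beyond counting error. Those cells were also shallower, with a median of 12883 UMIs against 20734 in the cells with such a UMI. The part of depth was not tested. Rbm20 was higher without as well, at 17.5 (12.0 to 24.5) against 7.96 (5.95 to 10.4), and the intervals of the other genes overlapped. The share of all genes that differed so was not computed. In the Acta1 gate the intervals of Rbm38 overlapped, and Rbm24, Celf2 and Rbfox2 were again higher without. In the Pax7 gate Celf2 went the other way, at 216 (184 to 252) without against 269 (254 to 285) with such a UMI. In the Acta1 gate Mbnl3 was 10.3 (4.93 to 18.9) in 34 cells with and 1.29 (0.265 to 3.76) in 148 without, on few UMIs and at medians of 30345 and 15925 UMIs per cell.

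At E9.5 Rbm24 was near the level of the other tissues in progenitors, at 2.04 UPM (1.34 to 2.97) in the Pax3 gate and 2.22 (0.605 to 5.69) in the Pax7 gate. The 29 cells of the E9.5 Myog gate held 99.8 (76.3 to 128), and the 4 cells of the Acta1 gate 279 (190 to 396), values that stand as listed. Of the 7 cells at E9.5 with at least 5 Rbm24 UMIs, 4 were in the Myog gate and 1 in the Acta1 gate. Celf2 in those 29 and 4 cells was 86.7 and 270 UPM, and Celf1 175 and 180.

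Against the pooled non-muscle gates at E9.5, the Pax3 gate had 0 of 9 genes past 2-fold in either direction, where 1.32% of all 11590 genes were past 2-fold higher and 8.63% lower. The log2 ratios ran from -0.71 for Rbm24 to 0.06 for Mbnl3. Qk was lower by -0.43 (-0.50 to -0.36) and Celf1 was level at 0.00 (-0.06 to 0.06). No gene of the 9 differed by 2-fold, and the intervals of Rbm24, Mbnl2, Celf2 and Qk lay below 0. With every non-muscle class given the same weight Celf2 turned to 0.03, and Rbm24 went past 2-fold at -1.12.

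At E11.5, 5 of 9 genes were past 2-fold in the Acta1 gate against the non-muscle gates, 4 higher and 1 lower. The intervals of all 9 excluded 0, a count that has no share of all genes beside it. Rbm24 was higher by 7.24 (6.94 to 7.56) on the log2 scale, a 151-fold ratio, Celf2 by 3.13 (3.04 to 3.21), Rbm38 by 1.91 (1.73 to 2.08) and Rbfox2 by 1.43 (1.35 to 1.52), and Mbnl3 was lower at -2.01 (-2.93 to -1.23). Over all 12102 genes 8.95% were past 2-fold higher and 29.8% lower, and with ratios centred on the median of all genes, -0.47, these shares were 13.91% and 19.96%. Mbnl1 and Mbnl2 stood at -0.73 (-1.01 to -0.46) and -0.63 (-0.91 to -0.37). By rank they were not far from that median, since 38.8% and 42.7% of all genes had a lower ratio. Mbnl1 went past 2-fold at -1.23 with every non-muscle class given the same weight. Celf1 at 0.38 (0.24 to 0.50) and Qk at 0.49 (0.38 to 0.60) were higher within 2-fold. Already in the Pax7 gate Rbm24 was higher than in the non-muscle gates by 3.07 (2.64 to 3.49) and Celf2 by 2.17 (2.07 to 2.26), whereas Rbfox2 at -0.02 (-0.13 to 0.09) and Rbm38 at 0.05 (-0.20 to 0.29) were level with them.

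The progenitor gates themselves differed between the stages. In the Pax3 gate 3 of 7 genes were past 2-fold higher at E11.5, Celf2 by 2.98 (2.75 to 3.21) on the log2 scale, Mbnl2 by 1.51 (1.14 to 1.88) and Rbfox2 by 1.17 (1.00 to 1.34), and 0 past 2-fold lower, where 7.62% of 8566 genes were past 2-fold higher and 5.17% lower. The Pax7 gate had the same 3 genes past 2-fold higher, Celf2 by 2.93 (2.56 to 3.32), Rbfox2 by 1.61 (1.28 to 1.96) and Mbnl2 by 1.09 (0.51 to 1.72), and 0 lower, where 8.68% of 6857 genes were past 2-fold higher and 2.93% lower. Mbnl2 fell within 2-fold in the Pax3 gate with stricter gates, at 0.96, and in the Pax7 gate under 3 other settings, down to 0.79, each of which left 2 genes past 2-fold higher. Celf2 itself was 19.1 UPM (16.8 to 21.6) and 34.4 (26.4 to 44.1) in the E9.5 Pax3 and Pax7 gates. Celf1 was lower at E11.5, at -0.70 (-0.88 to -0.52) in the Pax3 gate and -0.90 (-1.09 to -0.70) in the Pax7 gate, and so was Rbm38, at -0.87 (-1.27 to -0.49) and -0.49 (-0.91 to -0.07). With looser or stricter gates Rbm38 went past 2-fold lower in the Pax3 gate, at -1.08 and -1.03. Mbnl3 had 88 and 77 UMIs over both stages and ratios of 2.12 (1.48 to 2.75) and 1.74 (0.62 to 3.11). Rbm24 in the Pax7 gate stood higher by 2.97 (1.57 to 4.88), from 4 UMIs at the earlier and 94 at the later stage.

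The makeup of the progenitor gates moved with the stage. In the Pax3 gate the summed level of the 4 sclerotome markers went from 755 UPM at the earlier to 399 at the later stage. The sclerotome gate itself held 1055 and 616 UPM. The 4 Twist2 mesenchyme markers went from 205 to 621 UPM in the Pax3 gate, against 558 and 975 in the Twist2 gate itself. In the Pax7 gate the sclerotome markers went from 910 to 272 UPM and the Twist2 mesenchyme markers from 299 to 263. Cells with a Mki67 or Top2a UMI were 96.4% and 78.6% of the Pax3 gate and 98.9% and 80.1% of the Pax7 gate. Whether these bear on the stage ratios was not tested, and in both progenitor gates a stage difference cannot be told apart from a difference between the 2 libraries.

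**Figure D4:**
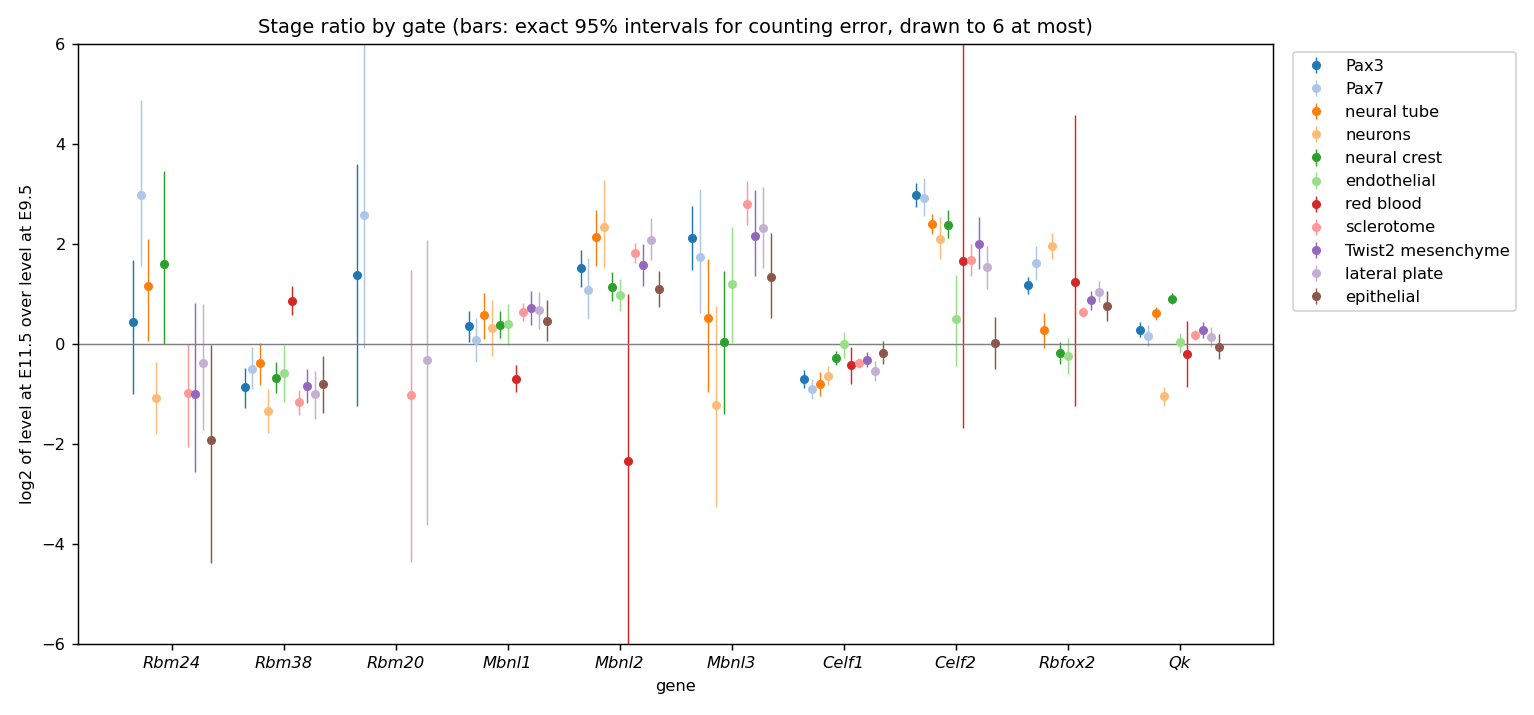
Log2 ratio of the level at E11.5 to that at E9.5 for each gene in each of the 11 gates with at least 30 cells at both stages, colored by gate. Bars are exact 95% intervals for counting error, drawn to 6 at most, and points are missing where too few UMIs gave a ratio. All 11 points of Celf1 lie below 0 and all 11 of Celf2 above it. The points of Rbm38 lie below 0 except for red blood cells at 0.86. Totals of the red blood gate include globin, so the sign of Celf1 there holds for these totals only.

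The same stage ratios were read in the 11 gates with at least 30 cells at both stages, 9 of them outside muscle. Celf1 was lower at E11.5 in 11 of 11 on totals that include globin. Its ratios ran from -0.90 in the Pax7 gate to -0.01 in endothelial cells, with 9 intervals below 0. These include red blood cells at -0.43 (-0.80 to -0.05). Globin made up 34.2% of the earlier red blood total and 64.5% of the later one, which lowers the UPM of other genes there. The sign of Celf1 in red blood cells therefore holds for these totals only, since ratios without globin were not computed. Of 1968 genes with at least 100 UMIs in every one of these gates, 32.5% were lower in all 11. Mbnl1 and Mbnl2 were higher in every gate but red blood, by up to 0.71 for Mbnl1 in the Twist2 gate and 2.34 for Mbnl2 in neurons, with 7 and 10 intervals above 0. Of 4525 genes, 13.3% were higher in all gates but red blood. Celf2 was higher in 11 of 11, from 0.02 in epithelial cells to 2.98 in the Pax3 gate, 8 of the intervals lying above 0. Celf2 had under 100 UMIs in endothelial and in red blood cells, so neither of these shares of all genes covers it. The stage difference of Celf2 was therefore not confined to muscle. Ratios were past 2-fold as well in the neural tube at 2.40 (2.19 to 2.60) and the neural crest at 2.39 (2.11 to 2.67). Their intervals lay below that of the Pax3 gate but overlapped that of the Pax7 gate, 2.93 (2.56 to 3.32). Neurons, the Twist2 gate, sclerotome and the lateral plate were past 2-fold too, from 1.53 in the lateral plate to 2.10 in neurons. Mbnl3 was past 0 by its interval in 7 of 10 gates, most in sclerotome at 2.80 (2.37 to 3.26). Counts of gates by interval, here and for the genes that follow, have no share of all genes beside them.

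Rbm38 was lower at E11.5 in 10 gates, 9 of them with intervals below 0, and higher in red blood cells by 0.86 (0.57 to 1.16). Rbfox2 was higher in 7 gates by its intervals, most in neurons at 1.96 (1.71 to 2.22), and its interval held 0 in neural tube, neural crest, endothelial and red blood cells. Qk was higher in the neural crest by 0.91 (0.80 to 1.02) and lower in neurons at -1.05 (-1.23 to -0.86). Rbm24 gave a ratio in 9 gates and Rbm20 in 4.

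Outside muscle each gene had its own order of tissues. Among classes of at least 30 cells Rbm24 at E9.5 was highest in neurons, 19.5 UPM (13.6 to 27.0) with a UMI in 28 of 140 cells, clear of the next class, epithelial cells at 5.85 (3.03 to 10.2). In E11.5 neurons it was 9.24 (6.36 to 13.0), where a single cell held 16 of the 33 UMIs. Rbm38 was highest in red blood cells at both stages, 83.3 UPM (70.1 to 98.4) and 152 (135 to 169), and was lowest at E11.5 in cartilage at 11.0 (6.01 to 18.5). Red blood cells also had Mbnl1 at 150 (132 to 170) and 92.6 (80.1 to 106), while they held 1 UMI of Mbnl2 and 0 of Mbnl3 at E11.5.

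Mbnl1 was highest of all in white blood cells at 296 UPM (264 to 332), which were gated at E11.5 only, followed by cartilage at 104 (86.8 to 123), whose interval overlapped that of red blood cells. Mbnl2 was 106 (88.0 to 126) in endothelial cells, 106 (88.9 to 126) in cartilage and 98.7 (85.2 to 114) in epithelial cells at E11.5, and these did not differ beyond counting error. Mbnl3 was highest in cartilage at 31.4 (22.4 to 42.8) and sclerotome at 23.8 (21.0 to 27.0), again with overlapping intervals. The muscleblind genes thus had their highest E11.5 levels outside the muscle gates.

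Over the classes of both stages together Celf1 had the smallest ratio of highest to lowest level. It ran from 76.1 UPM in red blood cells to 212 in neurons at E9.5 and from 56.7 in red blood cells to 159 in the Acta1 gate at E11.5. Epithelial cells at 155 (137 to 173) overlapped the Acta1 gate at E11.5. At E9.5 alone Rbm38 had a smaller such ratio, from 31.5 to 83.3 UPM. Totals of the red blood gate include globin, so its levels and these ratios hold for such totals only. Celf2 at E11.5 was 204 (178 to 234) in white blood cells, 195 (171 to 221) in the neural tube and 127 (116 to 140) in neurons, all below the Pax7 gate, and 13.4 (7.67 to 21.8) in endothelial cells, 9.43 (4.87 to 16.5) in cartilage and 1.89 (0.515 to 4.84) in red blood cells. Rbfox2 was 301 (283 to 319) in E11.5 neurons, above the Myog gate and below the Acta1 gate, against 10.8 (5.37 to 19.3) in white blood cells. Qk, known from glia, was highest at E11.5 in the neural tube at 366 (333 to 401) and neural crest at 352 (335 to 370), both above the Acta1 gate, and was 130 (119 to 143) in neurons and 20.8 (15.1 to 27.9) in red blood cells.

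**Figure D5:**
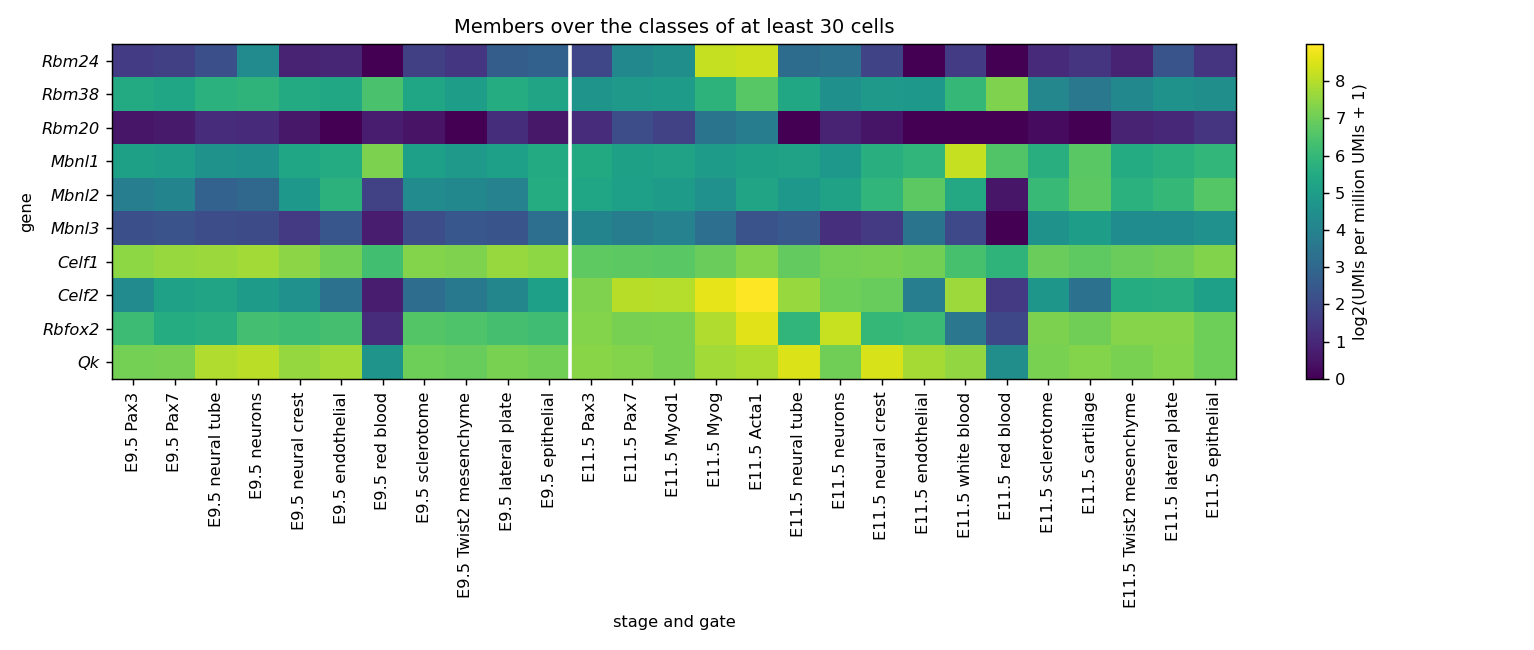
Heat map of log2(UMIs per 1000000 UMIs + 1) for the 10 genes (rows) over the 27 classes of at least 30 cells (columns), E9.5 left of the white line and E11.5 right of it. Rbm24 is high in the E11.5 Myog and Acta1 gates alone, at 294 and 314 UPM, Celf1 is lowest in the red blood columns and, at E11.5, in white blood next to them, at 81.2 UPM, and Mbnl1 is highest in white blood cells at 296. Totals of the red blood classes include globin, so their low place for Celf1 holds for these totals only.

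Other RNA-binding genes were read with the same ratio, Acta1 over Pax7 gate at E11.5. Of 54 listed, 39 had at least 100 UMIs, 2 were past 2-fold higher, 12 past 2-fold lower and 25 within, where 10.8% of all genes were past 2-fold higher and 18.0% lower. The median log2 ratio was -0.75 beside -0.28 over all genes. The highest were Fxr1, the muscle paralog of the fragile X protein, at 1.36 (1.23 to 1.49), Rbfox1, a paralog of Rbfox2, at 1.18 (0.68 to 1.69), and Msi2 at 0.87 (0.68 to 1.07). The lowest were Ptbp1, a repressor of muscle and neuronal exons, at -2.49 (-2.82 to -2.18), the neural stem cell protein Msi1 at -1.82 (-2.41 to -1.27) and Fmr1 at -1.57 (-1.85 to -1.29). Ptbp1 was 155 UPM in the Pax7 gate, 159 in the Myod1 gate, 98.9 in the Myog gate and 27.5 in the Acta1 gate. Fxr1 was 149, 136, 212 and 384 in the same gates. Fxr1 was thus highest and Ptbp1 lowest in the Acta1 gate among these 4 gates.

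A further 26 genes were those whose transcripts carry muscle exons or are known to be bound by these proteins. Of the 24 with at least 100 UMIs, 18 were past 2-fold higher in the Acta1 gate, 0 lower and 6 within, with a median of 3.67, beside the same 10.8% and 18.0% over all genes and their median of -0.28. Myog is among them and is set by the gates. Without it 17 of 23 were higher, with a median of 3.23. The highest were Ldb3, a Z-disc gene, at 9.32 (6.84 to 14.6) from 1 UMI in the Pax7 gate, cardiac-type troponin Tnnt2 at 8.23 (7.68 to 8.83) and Myog at 8.14 (7.73 to 8.58). The lowest were Pkm at -0.46 (-0.53 to -0.39), Naca at -0.28 (-0.33 to -0.24) and Insr at -0.12 (-0.64 to 0.39). Cdkn1a, the cell cycle inhibitor p21 and a known target of RBM24 and RBM38, was 8.90 UPM in the Pax7 gate, 9.03 in the Myod1 gate, 486 in the Myog gate and 1253 in the Acta1 gate. Ttn, the target of RBM20, was 51.3, 34.2, 558 and 4361 in the same gates.

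The genes most like each member across the 27 classes were read by Pearson r of log2(UPM + 1) over 9121 genes with at least 1000 UMIs, as a description, since the classes share 2 libraries. For Rbm24 these were Tmem8c, the gene of the fusion protein myomaker, at 0.89, Fndc5 at 0.89 and Arpp21 at 0.88, and for Rbm20 Ttn at 0.92, Pgam2 at 0.92 and Atp2a1 at 0.90. Rbm38 had lower values, with Tspan33 at 0.76, Cox17 at 0.76 and Car2 at 0.73. Mbnl1 was closest to Ctsb at 0.85, Mbnl2 to Pttg1ip at 0.92, Mbnl3 to Sdr39u1 at 0.92, Celf1 to Ktn1 at 0.88, Celf2 to Tank at 0.87, Rbfox2 to Rab18 at 0.95 and Qk to Sash1 at 0.92. Among the members Rbm24 and Rbm20 were most alike at 0.87, whereas the paralogs Rbm24 and Rbm38 had 0.21 and Celf1 and Celf2 0.09, and the lowest values were those of Rbm38 with Mbnl3 at -0.77 and with Mbnl2 at -0.76. Rbm20 had only 104 UMIs in all kept cells at E9.5 and 210 at E11.5, under the limit of 1000 for the other genes. The values of Rbm20 therefore rest on few counts.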

How the data were processed

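Inter-limb somites were profiled as 1 library per stage, E9.5 and E11.5, each from 3 pooled embryos. Per the methods of the authors, reads were aligned to mm10 with Cell Ranger 3.0.1, and the deposited values are raw UMI counts per gene and barcode, without normalization. The E9.5 matrix held 10121 barcodes and 149368952 UMIs, the E11.5 matrix 10167 and 136655763, against 10000 cells per sample in the labels. The depth sets the width of the Poisson intervals, which cover counting error only.

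The authors' cell filter was applied again and removed 270 and 572 barcodes. Gates, UMIs of the named genes per cell, replaced clusters, and no doublet caller was run. Doublets were limited by the gene maximum and, outside the Myod1, Myog and Acta1 gates, by leaving out cells that met several gates. Cells of the Myod1, Myog and Acta1 gates could meet no other gate, so that rule removed no doublet from them. The non-muscle gates used Sox2, Elavl3, Sox10, Cdh5, Tyrobp, globins, Pax1 with Pax9, Col2a1 with Sox9, Twist2, Foxf1 with Hand2, and Epcam. Classes of under 30 cells were listed and compared with nothing. UMIs were summed per class. Intervals of ratios are exact conditional Poisson intervals, checked on simulated data. No ratio was given where both counts were at or under 3.

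The 10 genes were named in full. Of the lists, the 3 highest and 3 lowest ratios with enough UMIs were named, and for each gene the 3 most alike genes, or the first of them. Cdkn1a and Ttn were named after their values were seen. Of the lists' other genes, the counts include a gene whose own values are not reported here. The members and lists were chosen with earlier results of these data known. Promoters came from RefSeq (GRCm38.p6) and positions from GENCODE M21, whose annotation may differ from that of the counting. Python 3.11.15, numpy 2.4.6, scipy 1.17.1, pandas 2.3.3 and matplotlib 3.10.9 were used. Another 11 settings were planned and 2 added after the data were seen.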

Additional observations from a re-analysis of the deposited data

Results flagged for a closer look

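The stage ratios of Rbm24, Rbm38, Mbnl1 and Qk, E11.5 over E9.5 on the log2 scale, had intervals above 0 in some class and below 0 in another. The share of all genes with such intervals was not computed, so these genes are listed only. None of these differences was tested, since each stage had 1 library. Rbm24 stood higher in the Pax7 gate at 2.97 (1.57 to 4.88) and lower in epithelial cells at -1.92 (-4.38 to -0.03), where it rests on 12 and 3 UMIs. Rbm38 was higher in red blood cells at 0.863 (0.57 to 1.16) and lowest in neurons at -1.35 (-1.79 to -0.91). Mbnl1 was higher in the Twist2 gate at 0.71 (0.38 to 1.06) and lower in red blood cells at -0.695 (-0.97 to -0.42), whose globin share of UMIs was 34.2% at E9.5 and 64.5% at E11.5. Qk was higher in the neural crest at 0.906 (0.80 to 1.02) and lower in neurons at -1.05 (-1.23 to -0.86), and neurons with a Mki67 or Top2a UMI went from 71.4% to 20% of the gate. Because totals include globin, its larger share at E11.5 lowers the UPM of all other genes in red blood cells. The sign of the Mbnl1 ratio there holds for these totals only, since ratios without globin were not computed. Whether cycling bears on the ratios of Qk was not tested.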

How the results depend on the processing

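With 1 library per stage no library could be left out. No paired analysis was possible because each stage had 1 library and no result came from a test. Of the log2 ratios of single genes under the other settings, 423 stayed within the counting interval, 56 moved beyond it and 1 whose interval lay clear of 0 changed sign: Celf2 in the Pax3 gate over non-muscle at E9.5 turned from -0.28 to 0.031 with every class given the same weight. The settings differed in this. In cells without Mki67 and Top2a only, 14 ratios moved and 6 stayed. With every class given the same weight 10 moved, 1 changed sign and 9 stayed. Centring moved 12 and left 38. All 50 stayed with looser gates, for example, and with at least 1000 genes per cell.

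Counts of genes past 2-fold moved as follows, and apart from the thresholds the cause was not tested. These counts have no share of all genes at the same setting beside them. A lower fold or a lower minimum of UMIs can only add genes, among all genes as well, so the counts are listed only. Between stages in the Pax3 gate, the lower count went from 0 to 1 with looser and with stricter gates and to 2 at 1.5-fold. Between stages in the Pax7 gate, the higher count went from 3 to 5 at a minimum of 30 UMIs and the lower from 0 to 1 at 1.5-fold. The higher count went from 3 to 2, without Mbnl2, with stricter gates in the Pax3 gate (0.96) and in the Pax7 gate with means over cells (0.91), cells over 25000 UMIs left out (0.79) and mixed cells left out (0.98). For Acta1 over Pax7, the lower count went from 0 to 1 at a minimum of 30 UMIs and the higher from 3 to 5 at 1.5-fold. For Acta1 over non-muscle, the lower count went from 1 to 3 at 1.5-fold and to 2 with equal weights of classes. For Pax3 over non-muscle, the lower count went from 0 to 1 with means over cells, at 1.5-fold and with equal weights. At a minimum of 30 UMIs Rbm20 also joined the genes past 2-fold higher for Acta1 over Pax7 (1.93) and Acta1 over non-muscle (4.49). Mbnl3 (2.12) joined those past 2-fold higher between stages in the Pax3 gate.

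Rbm24 in the Acta1 over the Pax7 gate stayed between 3.65 and 4.45 and Rbfox2 between 1.36 and 1.73. Celf2 ran from 0.70 to 1.31, past 2-fold with looser gates, totals without mitochondrial and sarcomere genes, centring, cells over 25000 UMIs left out, and cells without Mki67 and Top2a only. Mbnl2 ran from -0.23 to 0.44. Stricter gates left too few E9.5 Pax7-gated cells, and cells without Mki67 and Top2a too few at E9.5, so those values were not computed. Depth limits Rbm20, Mbnl3 and E9.5 Rbm24 most.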

Other observations

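At E9.5 the Rbm24 UMIs outside muscle were spread thinly, with 96 in 1860 neural tube cells, 36 in 140 neurons, 35 in 1143 sclerotome cells and 29 in 356 lateral plate cells. In the lateral plate gate its level was 5.31 UPM (3.55 to 7.62). At E11.5 the neural tube gate held 7.96 UPM (3.82 to 14.6) in 121 cells.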
